A study of Mus musculus with 2 samples.

Results

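The mitochondrial ribosome proteins were followed in BMSC-Adipo and BMSC-Osteo, a pair of mouse bone marrow stromal cell lines, of which the first forms fat cells and the second bone-forming cells in culture. Members were taken as the genes whose symbol in the authors' annotation begins with *Mrpl* or *Mrps* and a digit, and 78 genes met this rule, against 20706 genes with a probe set of their own on the array. They were read by 162 of 45101 probe sets. Of the 78 genes, 49 carry a large subunit name (*Mrpl*) and 29 a small subunit name (*Mrps*), and all but *Mrpl53*, whose only probe set is shared with *Ccdc142*, had a probe set of their own.

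Both lines are spontaneously immortalized, each from 1 clone, on a C57BL/6 background with a beta-actin-GFP transgene and the ApoE(-/-) genotype. RNA was taken at day 0 from undifferentiated cultures in basal medium (DMEM with 12% FBS in the labels, and penicillin and streptomycin), and each line had 1 Affymetrix expression array loaded with a pool of 3 cultures. Values are log2 levels from robust multiarray averaging (RMA), which corrects background and puts both arrays on a common distribution. With 1 array a line there was no spread within a line, so no test could be run, and every difference below is a description of these 2 arrays.

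Mitochondria carry their own ribosome, which translates the few messages encoded by mitochondrial DNA, all of them for membrane subunits of the respiratory chain and ATP synthase. Its ribosomal RNAs come from mitochondrial DNA, whereas all of its proteins are encoded in the nucleus, made in the cytosol and imported. The ribosome descends from a bacterial one. Part of its proteins have bacterial counterparts and the rest exist only in mitochondria, and loss of single members in humans causes combined deficiency of the respiratory complexes.

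A difference is the log2 level in BMSC-Adipo minus that in BMSC-Osteo, so that a positive value means higher in BMSC-Adipo and 1 is 2-fold. Each gene took its brightest probe set, and genes whose mean level lay below the 30th percentile of all genes (a log2 level of 4.20) were left out, which kept 14497 genes. All 77 members with a probe set of their own passed. The line labels were checked against markers. Of 7 adipocyte markers *Cidec* was below the filter in both lines (2.85 and 2.66) and *Plin1* had no probe set of its own. *Pparg* had a level of 9.31 in BMSC-Adipo and 5.25 in BMSC-Osteo, and *Cebpa* and *Lpl* were also higher in BMSC-Adipo. *Adipoq* (12.3 and 3.16) and *Fabp4* (9.42 and 3.30) passed only through BMSC-Adipo, their levels in BMSC-Osteo being under that of the filter, so no size is given for them. Of 7 osteoblast markers 6 were at least 2-fold higher in BMSC-Osteo, *Bmp2* among them with a level under that of the filter in BMSC-Adipo (3.29), and *Runx2* was not (0.28). Of 6 stromal markers *Nt5e* was higher in BMSC-Osteo (-3.42), *Vcam1* was higher in BMSC-Adipo (3.62) and *Thy1* was below the filter. *Eng*, *Pdgfrb* and *Ly6a* were within 1.5-fold by their brightest probe sets. Of 5 blood and macrophage markers *Ptprc* and *Itgam* were below the filter, *Adgre1* had the same level in both lines, *Csf1r* had probe sets from -1.30 to -0.32, and *Cd68* had a level of 5.40 in BMSC-Adipo and 3.99, under that of the filter, in BMSC-Osteo. Of 4 endothelial markers *Pecam1* and *Tek* were below the filter, and *Cdh5* and *Kdr* were within 1.5-fold. The part of such cells in the results was not tested. *Apoe* was below the filter in both lines (3.73 and 4.11), and whether its probe set lies inside the deleted part was not examined.

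The members were well expressed in both lines and differed little between them. Their mean levels ran from 6.25 to 10.7 with a median of 8.99, against a median of 7.19 over all genes past the filter. In BMSC-Adipo they spanned 5.98 to 10.7 with a median of 8.93, and in BMSC-Osteo 6.52 to 10.8 with a median of 9.09. The median difference was -0.10, with a middle range (lower to upper quartile) from -0.29 to 0.17. Over all genes the median was -0.03 and the middle range ran from -0.35 to 0.33. The SD of the differences was 0.40 among the members and 0.91 among all genes.

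Few members passed a size rule. At least 2-fold higher in BMSC-Adipo was 1 member of 77, where 7.88% of all genes passed, and none was at least 2-fold higher in BMSC-Osteo, where 6.68% of all genes passed. With a rule of 1.5-fold, 3 members were higher in BMSC-Adipo and 7 in BMSC-Osteo. The background shares were 16.1% and 14.5%, so the share of members was below the background on both sides. With the median difference of each gene's chromosome subtracted, these counts were 1 and 2. The shares of all genes after this subtraction were not computed, so these counts have no background here. Counted either way, 1 member was 2-fold apart (14.6% of all genes) and 10 were 1.5-fold apart (30.6% of all genes). Genes within the brightness range of the members passed the 2-fold rule in 9.37% and 7.05% of cases. By sign alone, 43 members were higher in BMSC-Osteo and 34 in BMSC-Adipo, where 51.4% and 46.7% of all genes lay on these sides. Probe sets of the same gene differed from each other by a pooled SD of 0.40 over all genes and of 0.23 over the 35 members with several probe sets past the filter. These SDs reflect how probes differ and say nothing of how cultures vary. For 52 members the difference between the lines was smaller than 0.40.

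**Figure D1:**
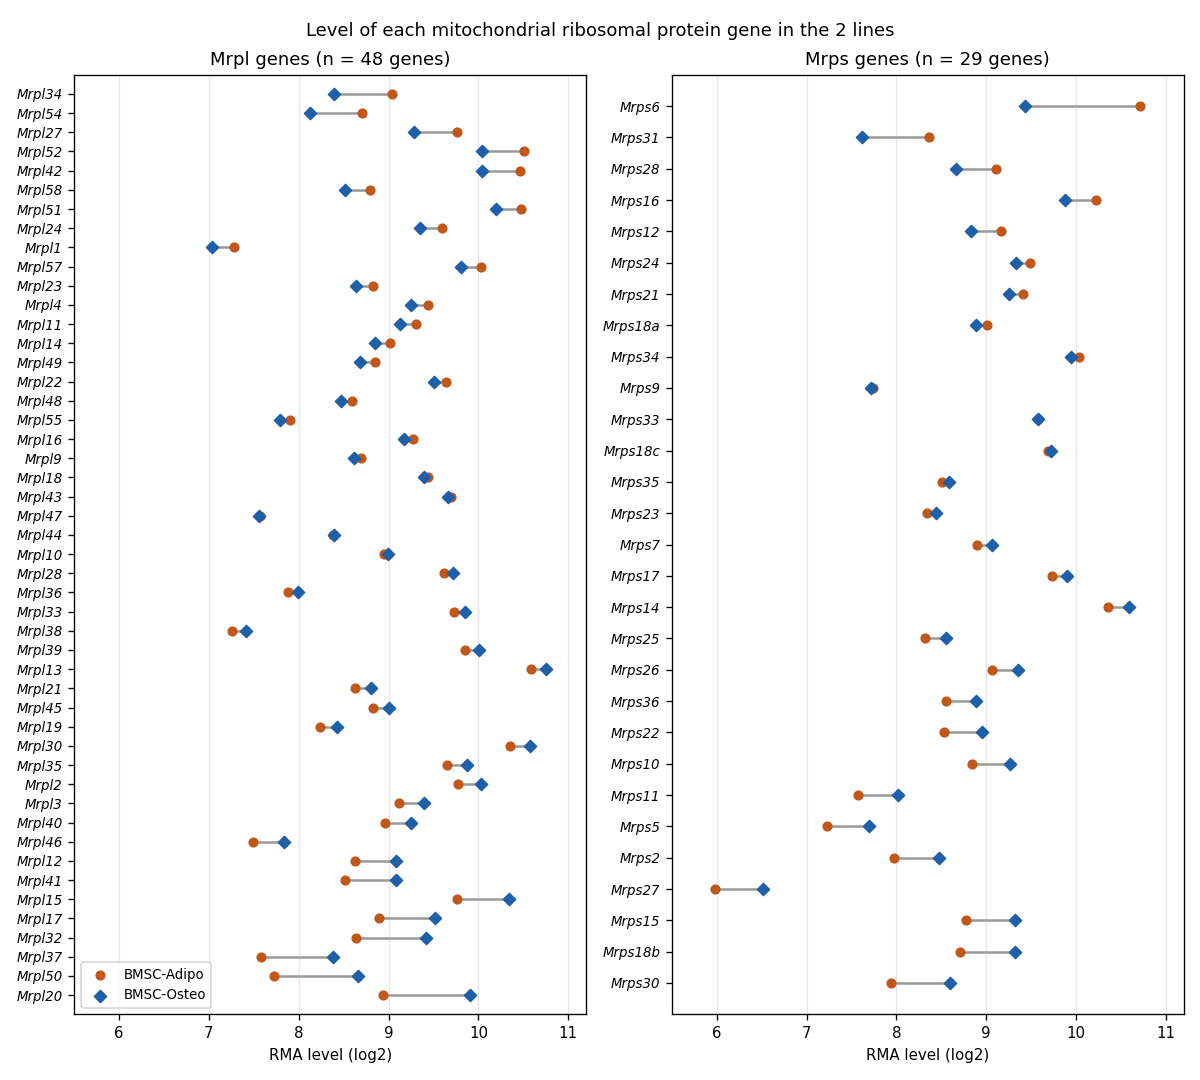
RMA level (log2, horizontal axis) of each mitochondrial ribosomal protein gene in BMSC-Adipo (circles) and BMSC-Osteo (diamonds), 48 *Mrpl* genes on the left and 29 *Mrps* genes on the right, ordered by their difference. *Mrps6* has the longest bar (1.28), and 67 of the 77 genes differ by less than 1.5-fold.

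*Mrps6*, the counterpart of the bacterial small subunit protein S6, was the member at least 2-fold apart. Its log2 level was 10.7 in BMSC-Adipo and 9.44 in BMSC-Osteo, a difference of 1.28 or 2.43-fold. It was the brightest member of all in BMSC-Adipo. In BMSC-Osteo *Mrpl13*, *Mrps14* and *Mrpl30* were among those above it. Only 1 probe set reads *Mrps6* alone, and another that the annotation gives to both *Slc5a3* and *Mrps6* had 11.1 in BMSC-Adipo and 9.98 in BMSC-Osteo (1.16). *Slc5a3* encodes a myo-inositol transporter and stands next to *Mrps6* in the order of measured genes on chromosome 16. That order does not show whether the 2 genes overlap. *Slc5a3* stood farther apart, with levels of 11.0 and 8.73 (2.28), and a second probe set of it gave 2.31. *Atp5o* (-0.24), beyond *Slc5a3*, and *Smim11* (0.38), on the other side of *Mrps6*, were within 1.5-fold. The 10 nearest measured genes around *Mrps6* had a median difference of 0.03. The part of the *Slc5a3* difference in the value of *Mrps6* was not tested.

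The stretch before the *Mrps6* start is shown because this gene had the largest difference of the members, and that of *Mrpl20* because it had the largest difference on the other side. Both run 5′ to 3′ in the direction of the gene, cover 250 bases before the start and come from RefSeq on GRCm38.p6, *Mrps6* at chr16:92058086-92058335 and *Mrpl20* at chr4:155802628-155802877, both on the plus strand.
Mrps6: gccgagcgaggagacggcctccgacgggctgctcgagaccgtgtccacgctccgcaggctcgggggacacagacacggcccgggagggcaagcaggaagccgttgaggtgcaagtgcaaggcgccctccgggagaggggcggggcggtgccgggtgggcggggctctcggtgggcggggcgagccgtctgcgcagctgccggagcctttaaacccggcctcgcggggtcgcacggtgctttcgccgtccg
Mrpl20: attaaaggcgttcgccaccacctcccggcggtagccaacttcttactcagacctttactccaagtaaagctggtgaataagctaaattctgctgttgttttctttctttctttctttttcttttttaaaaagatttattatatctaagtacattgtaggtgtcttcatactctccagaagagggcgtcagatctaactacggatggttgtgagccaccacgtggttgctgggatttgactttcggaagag
The *Mrps6* stretch had a GC content of 74.4% and 33 CpG dinucleotides, and the *Mrpl20* stretch 41.6% and 8. Neither held a match of the motifs described further on, so no base is in capitals.

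Besides *Mrps6*, the members at least 1.5-fold higher in BMSC-Adipo were *Mrps31* and *Mrpl34*. *Mrps31*, a small subunit protein found only in mitochondria, had 8.36 in BMSC-Adipo and 7.62 in BMSC-Osteo (0.74). *Mrpl34*, the counterpart of bacterial L34, had 9.04 and 8.39 (0.64), with its dimmer probe set at 0.18. Both genes lie on chromosome 8. Just under the rule came *Mrpl54* (0.58), followed by *Mrpl27* (0.47), whose bacterial counterpart reaches toward the peptidyl transferase centre, *Mrpl52* (0.47), *Mrps28* (0.45), *Mrpl42* (0.43), *Mrps16* (0.35) and *Mrps12* (0.33), the counterpart of bacterial S12 at the decoding site.

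Toward BMSC-Osteo the differences were led by large subunit genes, which by name make up 48 of the 77 members. *Mrpl20*, the counterpart of bacterial L20, which in bacteria acts early in assembly of the large subunit, had 8.93 in BMSC-Adipo and 9.91 in BMSC-Osteo (-0.97). *Mrpl50*, a mitochondria-specific protein, had 7.73 and 8.66 (-0.93), and its second probe set had the same sign (-0.63). *Mrpl37*, also mitochondria-specific and read only by a probe set marked as cross-matching, had 7.58 and 8.38 (-0.80). These 3 genes all lie on chromosome 4. *Mrpl32*, which is matured by the m-AAA protease of the inner membrane before it joins the ribosome, had 8.64 and 9.42 (-0.78). *Mrps30* had 7.94 and 8.60 (-0.66), and *Mrps18b* had 8.71 and 9.32 (-0.62). *Mrpl17* had 8.89 and 9.52 (-0.63), but its dimmer probe sets gave -0.19 and 0.36, so its place among the 7 rests on the probe set chosen. Under the 1.5-fold rule on this side came *Mrpl15* (-0.57), *Mrpl41* (-0.57), *Mrps15* (-0.55) and *Mrps27* (-0.54), a pentatricopeptide repeat protein.

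By name, the large subunit genes had a median difference of -0.02 over 48 genes and the small subunit genes one of -0.17 over 29. In the large subunit 25 genes were higher in BMSC-Osteo and 23 in BMSC-Adipo, and in the small subunit 18 and 11. Of the 7 genes at least 1.5-fold higher in BMSC-Osteo, 5 carry a large subunit name, as do 48 of the 77 members. These 5 are 10.4% of the large subunit genes, and the other 2 are 6.90% of the small subunit genes. Of all genes 14.5% passed this rule. Names do not match place in every case: the products of *Mrps30* and *Mrps18a* sit in the large subunit, and *Mrps36* encodes a protein now assigned to the 2-oxoglutarate dehydrogenase complex (-0.33). With the first 2 moved and *Mrps36* left out, the medians were -0.02 and -0.14. The gap between the subunits was 0.14 in the values given here, 0.0514 when all probe sets of a gene were averaged and 0.0064 with each probe set counted on its own.

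The 3 *Mrps18* paralogs, which all descend from bacterial S18 and occupy different places in the ribosome, lay apart from one another. *Mrps18b* was higher in BMSC-Osteo (-0.62). *Mrps18c*, with 9.69 in BMSC-Adipo and 9.72 in BMSC-Osteo, was level (-0.03), and *Mrps18a*, with 9.01 and 8.89, was slightly higher in BMSC-Adipo (0.13). Each was read by 1 probe set.

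Structural groups held members on both sides. In the stalk of the large subunit, where translation factors dock, *Mrpl12* had 8.62 in BMSC-Adipo and 9.09 in BMSC-Osteo (-0.46), while *Mrpl10* (-0.04) and *Mrpl11* (0.18) lay near 0. *Mrpl12* is also known to bind the mitochondrial RNA polymerase. At the exit of the peptide tunnel, *Mrpl17* (-0.63) and *Mrpl45* (-0.18), which ties the ribosome to the inner membrane, were higher in BMSC-Osteo. *Mrpl47* (0.01), *Mrpl22* (0.13), *Mrpl23* (0.19) and *Mrpl24* (0.24) were at or above 0, and the 6 genes had a median of 0.07. In the head and messenger RNA channel of the small subunit, *Mrps2* (-0.49), *Mrps5* (-0.47) and *Mrps10* (-0.43) stood on the side of BMSC-Osteo. *Mrps14* (-0.23), *Mrps7* (-0.17), *Mrps9* (0.03), *Mrps24* (0.16) and *Mrps12* followed, and the median of these 8 genes was -0.20. None of these genes was 2-fold apart, a rule that 14.6% of all genes passed.

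Members listed as bacterial-type and as mitochondria-specific had overlapping ranges. The mitochondria-specific lists also held *Mrps18a* (large subunit) and *Mrps18b* (small subunit, -0.62), although both descend from bacterial S18. In the large subunit the median was -0.10 over 29 bacterial-type genes, with a range of -0.97 to 0.64, and 0.01 over 20 mitochondria-specific genes, with a range of -0.93 to 0.58. *Mrpl55* (0.11) was in neither list. In the small subunit it was -0.10 over 16 and -0.17 over 10. *Mrps6* is of the bacterial type and *Mrps31* of the mitochondria-specific type, so both kinds reached into the members highest in BMSC-Adipo.

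The brightest members differed by less than 1.5-fold, apart from *Mrps6*. *Mrpl13* had 10.6 in BMSC-Adipo and 10.8 in BMSC-Osteo (-0.16), *Mrps14* 10.4 and 10.6, and *Mrpl30* 10.4 and 10.6 (-0.22). *Mrpl51* (10.5 and 10.2) and *Mrps16* (10.2 and 9.88) lay on the other side. *Mrps27* had the lowest levels of all members, 5.98 and 6.52.

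Probe sets allowed a check within the same arrays. Of the 35 members with several probe sets past the filter, 24 had no probe sets of opposite sign and 11 had. The 11 were *Mrpl1*, *Mrpl9*, *Mrpl17*, *Mrpl30*, *Mrpl35*, *Mrpl49*, *Mrps5*, *Mrps9*, *Mrps10*, *Mrps15* and *Mrps23*. The widest gaps among them were those of *Mrpl17* (-0.63 to 0.36), *Mrps5* (-0.60 to 0.17), *Mrpl1* (-0.52 to 0.24) and *Mrps15* (-0.55 to 0.17). *Mrpl15*, a counterpart of bacterial L15, was read by 7 probe sets past the filter, all of them lower in BMSC-Adipo, from -0.66 to -0.04. The 3 probe sets of *Mrpl52* gave 0.45 to 0.47 and the 3 of *Mrpl11* gave 0.16 to 0.18. *Mrpl53*, through the probe set it shares with *Ccdc142*, had 9.49 in BMSC-Adipo and 9.73 in BMSC-Osteo (-0.24).

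**Figure D2:**
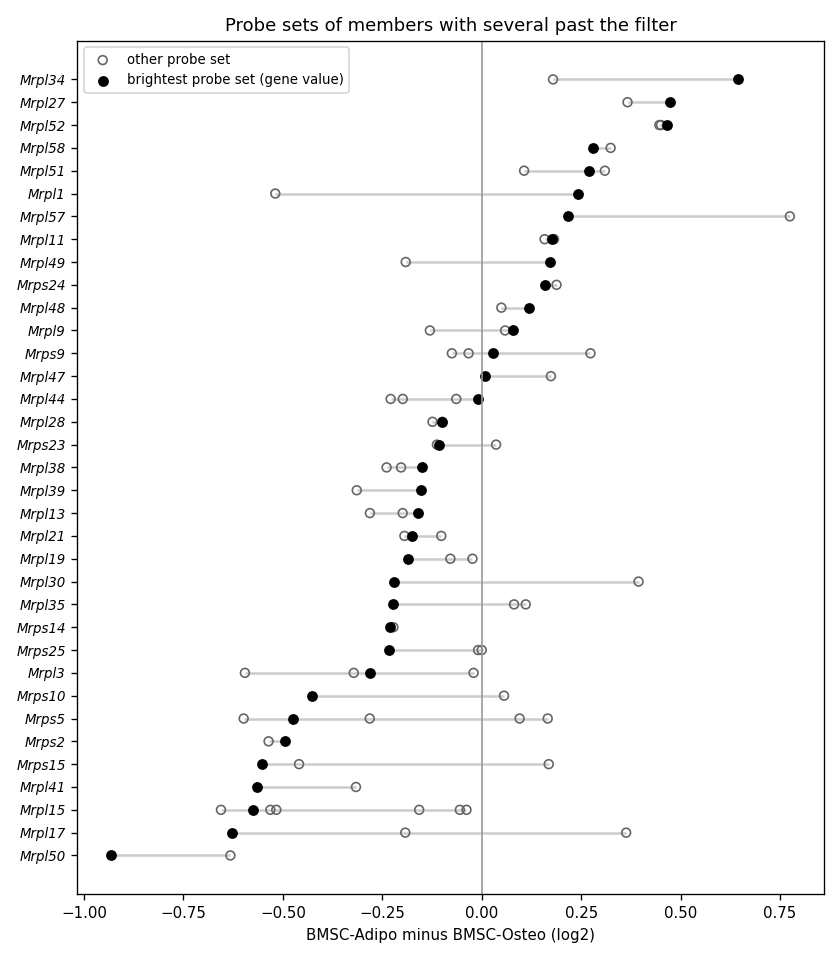
Difference between the lines (BMSC-Adipo minus BMSC-Osteo, log2, horizontal axis) for every probe set past the filter of the 35 members with several, filled for the brightest one, which gives the gene's value, and open for the others. In 11 genes the points lie on both sides of 0, and *Mrpl15* has 7 points, all below 0.

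The side on which a member stood went with its chromosome. Over the 77 members, the difference of a member and the median difference of all other genes on its chromosome had a Pearson r of 0.68 and a Spearman rho of 0.63, and the Pearson r was 0.78 without *Mrps6*. The points share the 2 arrays, and members of a chromosome share the same median, so these values are a description. Members lay on 17 chromosomes. The 3 of these with the lowest medians of other genes were chromosomes 4 (-0.32), 2 (-0.24) and 13 (-0.23), and all 13 members there were higher in BMSC-Osteo, with a median of -0.55. Of the other genes on these chromosomes 71.0% were higher in BMSC-Osteo. The 3 with the highest medians were chromosomes 8 (0.40), 10 (0.24) and 14 (0.16), where all 7 members were higher in BMSC-Adipo, with a median of 0.47, as were 68.3% of the other genes. On the remaining chromosomes 30 members were higher in BMSC-Osteo and 27 in BMSC-Adipo, with a median of -0.03. These chromosome groups, and leaving out *Mrps6*, were chosen after the values had been seen.

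On chromosome 4 the members were *Mrpl20*, *Mrpl50*, *Mrpl37* and *Mrps15*. On chromosome 2 they were *Mrpl41*, *Mrps2*, *Mrps5* and *Mrps26* (-0.28), and on chromosome 13 *Mrpl32*, *Mrps30*, *Mrps27*, *Mrps36* and *Mrpl36* (-0.10). Of the 7 members at least 1.5-fold higher in BMSC-Osteo, 5 lay on these 3 chromosomes, which hold 13 of the 77 members. Of the other genes there, 71.0% were higher in BMSC-Osteo. The share of all genes passing the 1.5-fold rule that lay on these chromosomes was not computed. On the other side stood *Mrps31* and *Mrpl34* of chromosome 8, *Mrpl54* and *Mrpl42* of chromosome 10, and *Mrpl52*, *Mrps16* and *Mrpl57* (0.22) of chromosome 14. *Mrps6* of chromosome 16, where other genes had a median of -0.14, departed most from its chromosome. After the median of each chromosome's other genes had been subtracted, the SD of the members was 0.32 and their median was -0.04. Over all other genes past the filter r was 0.24. For respiratory chain subunits r was 0.56 and rho 0.63 over 73 genes, and for cytosolic ribosomal proteins r was 0.15 and rho 0.61 over 52. The last r includes *Rps4l*, which is under the level of the filter in BMSC-Adipo (3.36), and r without it was not computed.

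**Figure D3:**
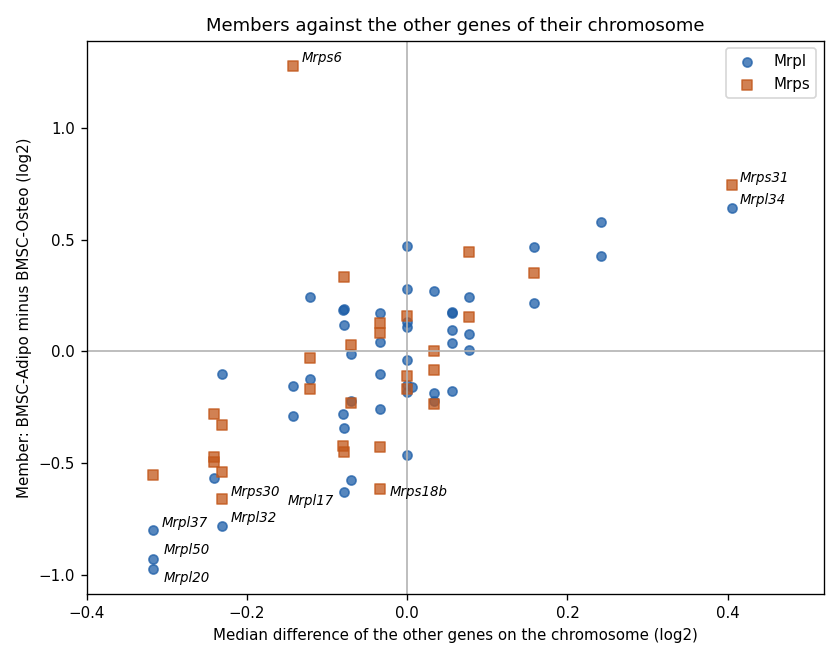
Difference of each of 77 members (BMSC-Adipo minus BMSC-Osteo, log2, vertical axis) against the median difference of the other genes on its chromosome (log2, horizontal axis), circles for *Mrpl* and squares for *Mrps*, with the 10 members at least 1.5-fold apart named. Points run from the lower left (chromosome 4) to the upper right (chromosome 8), and *Mrps6* stands above them at 1.28.

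Near *Mrpl20* the genes on chromosome 4 also lay on the side of BMSC-Osteo. *Atad3a*, which encodes an ATPase of the mitochondrial inner membrane, had 8.48 in BMSC-Adipo and 9.81 in BMSC-Osteo (-1.33), and *Ccnl2* (-0.79) and *Aurkaip1* (-0.77) followed on the other side of *Mrpl20*. *Aurkaip1* encodes a small subunit protein of the mitochondrial ribosome under another name. The 10 measured genes nearest to *Mrpl20* had a median of -0.44. Around *Mrps31* that median was 0.70, close to its own difference, whereas around *Mrps30* it was 0.03.

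Members often lay head to head with another gene. Of 68 members with a promoter window in the RefSeq table, 26 (38.2%) had a gene on the opposite strand whose start lay within 1000 bases upstream, against 18.5% of all genes past the filter with a window. The partner was measured for all 26 members, and the differences had the same sign for 14 of them, *Mrps11* and *Mrpl46* being partners of each other and counted once for each. Of all genes 51.4% were higher in BMSC-Osteo and 46.7% in BMSC-Adipo. A count of 14 of 26 was thus near an even split and is not read as a link between partners. *Mrps11* (-0.45) and *Mrpl46* (-0.34), 1 of each subunit, start 42 bases apart and were both higher in BMSC-Osteo. *Mrps27* (-0.54) lies opposite *Ptcd2* (-0.74), a mitochondrial RNA-processing protein, and *Mrpl32* (-0.78) opposite the proteasome subunit *Psma2* (-0.32). Signs were opposite in other pairs, such as *Mrpl51* (0.27) with *Ncapd2* (-0.45) and *Mrps18b* (-0.62) with *Ppp1r10* (0.13). In the pairs of *Mrpl43* and *Mrpl47* the partner stood farther from 0 than the member. *Mrpl43* was level (0.04), while *Twnk*, the helicase of mitochondrial DNA, had 7.48 in BMSC-Adipo and 8.01 in BMSC-Osteo (-0.54). *Mrpl47* (0.01) lies opposite the complex I subunit *Ndufb5*, which had 10.8 and 9.84 (0.91).

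The bases between the paired starts are shown for 4 of the pairs named above, those among them with starts at most 205 bases apart. In these, 1 short stretch lies before both genes. Pairs not named above can be as close, such as *Mrpl21* and *Ighmbp2* (32 bases), and are not shown. Each stretch is read 5′ to 3′ in the direction of the member, from RefSeq on GRCm38.p6. Capitals mark matches, on either strand, of the motif of NRF1 (a regulator of nuclear genes for mitochondria, with its letters as in the capitals of *Mrpl32* and any base allowed at its sixth place), of CCGGAAG (ETS factors such as GABP) or of AAGATGGC (YY1). The positions are chr13:14613038-14613241 on the minus strand for *Mrpl32*, chr19:45006443-45006557 on the minus strand for *Mrpl43*, chr7:78783090-78783130 on the plus strand for *Mrps11* and chr13:99344679-99344785 on the plus strand for *Mrps27*.
Mrpl32/Psma2: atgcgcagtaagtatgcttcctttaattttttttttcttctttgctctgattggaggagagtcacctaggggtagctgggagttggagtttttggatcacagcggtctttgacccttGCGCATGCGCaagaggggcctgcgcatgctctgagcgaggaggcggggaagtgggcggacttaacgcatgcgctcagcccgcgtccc
Mrpl43/Twnk: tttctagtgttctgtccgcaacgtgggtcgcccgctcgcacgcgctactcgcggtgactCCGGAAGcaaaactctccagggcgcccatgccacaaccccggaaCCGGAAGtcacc
Mrps11/Mrpl46: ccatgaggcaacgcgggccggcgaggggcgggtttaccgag
Mrps27/Ptcd2: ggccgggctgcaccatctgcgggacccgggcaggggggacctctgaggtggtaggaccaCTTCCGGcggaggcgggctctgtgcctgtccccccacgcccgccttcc
The *Mrpl32* stretch held 1 match of the NRF1 motif, that of *Mrpl43* held 2 of the ETS motif, that of *Mrps27* held 1 of it, and that of *Mrps11* held none.

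Over the whole windows of 300 bases (250 before to 50 after the start), the ETS motif was found in 25 of 68 members (36.8%), against 9.93% of 27025 genes with a window. The NRF1 motif was found in 13 (19.1%, against 5.19%) and the YY1 motif in 12 (17.6%, against 3.19%). Unlike the background for head-to-head genes, these 27025 include genes below the filter or not measured, whereas all these members passed it. Motif shares over the 10919 genes past the filter with a window were not computed. No member held all of them, 8 held at least 2 different ones, and matches of different motifs did not overlap in any member window. Cytosolic ribosomal proteins held the ETS motif in 20 of 41 genes and the NRF1 motif in 4, and respiratory chain subunits in 16 and 14 of 60. Members with the ETS motif had a median difference of 0.04, and those without it -0.17. For the NRF1 motif these medians were -0.15 and -0.10, and for YY1 -0.13 and -0.07. A match is a run of letters and not a bound site. By their brightest probe sets the factors themselves lay within 1.5-fold, *Nrf1* at -0.40, *Gabpa* at -0.34, *Gabpb1* at 0.10 and *Yy1* at 0.16. Their other probe sets reached -0.72 for *Gabpa*, which is past 1.5-fold, and -0.46 for *Gabpb1* and -0.12 for *Yy1*, both of opposite sign.

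Of the mitochondrial ribosome proteins that go by other names, 4 of 5 were higher in BMSC-Osteo, where 51.4% of all genes were. *Aurkaip1* had 9.62 in BMSC-Adipo and 10.4 in BMSC-Osteo, and *Ptcd3*, a pentatricopeptide repeat protein of the small subunit, had 8.84 and 9.43 (-0.59). *Dap3* (-0.22), a GTP-binding protein of the small subunit, and *Chchd1* (-0.13) were closer. *Gadd45gip1*, of the large subunit, had 8.57 and 8.00 (0.57). The first 2 passed the 1.5-fold rule, as did 14.5% of all genes on that side. *Aurkaip1* lies on chromosome 4 and *Gadd45gip1* on chromosome 8.

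Factors that assemble the mitochondrial ribosome had a median of -0.30 over 21 genes past the filter. Of these 14 (66.7%) were higher in BMSC-Osteo, against 51.4% of all genes. At least 1.5-fold higher there were 6 (28.6%, against 14.5%), and at least 2-fold higher 2 (9.52%, against 6.68%). *Tfb1m*, which methylates the small ribosomal RNA, had 5.92 in BMSC-Adipo and 7.34 in BMSC-Osteo (-1.43), with its second probe set at -1.02. *Nsun4*, another methyltransferase of that RNA, had 6.72 and 7.78 (-1.06), although another of its probe sets differed by only -0.17. *Noa1*, a GTPase of small subunit assembly, had 7.26 and 8.00 (-0.74). On the other side *Ddx28*, an RNA helicase of large subunit assembly on chromosome 8, had 7.54 and 6.54 (1.00), just short of 2-fold. The median moved to -0.16 with chromosome medians subtracted and to -0.13 with each probe set counted on its own.

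Translation factors of mitochondria were split, 5 genes on each side, with a median of -0.05. *Mrrf*, which recycles the ribosome after termination, had 7.27 in BMSC-Adipo and 8.07 in BMSC-Osteo (-0.81). *Tufm* (-0.39), the elongation factor that brings tRNA to the ribosome, and *Gfm2* (-0.52, with another probe set at 0.05) stood on the same side. *Mtif3*, an initiation factor, had 7.06 and 6.65 (0.40).

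Among 19 mitochondrial aminoacyl-tRNA synthetases and subunits of the glutaminyl-tRNA amidotransferase the median was -0.20, and 12 (63.2%) were higher in BMSC-Osteo, against 51.4% of all genes. *Nars2*, the asparaginyl enzyme, had 5.32 in BMSC-Adipo and 6.47 in BMSC-Osteo (-1.15), and *Yars2*, the tyrosyl enzyme, had 6.58 and 7.36 (-0.78). *Gatb*, a subunit of the amidotransferase, had 8.33 and 5.32 (3.00), but its second probe set differed by only 0.15. *Cars2* (0.55), the cysteinyl enzyme, was the next on that side.

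Genes that copy and transcribe mitochondrial DNA or stabilize its messages had a median of -0.14 over 11 genes, 7 of them (63.6%) higher in BMSC-Osteo, against 51.4% of all genes. *Tfb2m*, a transcription factor of mitochondrial DNA, had 8.89 in BMSC-Adipo and 9.72 in BMSC-Osteo (-0.84). *Twnk*, given above, stood on the same side. *Lrpprc* (-0.42) and *Slirp* (0.55), which form a complex that stabilizes mitochondrial messages, lay on opposite sides.

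**Figure D4:**
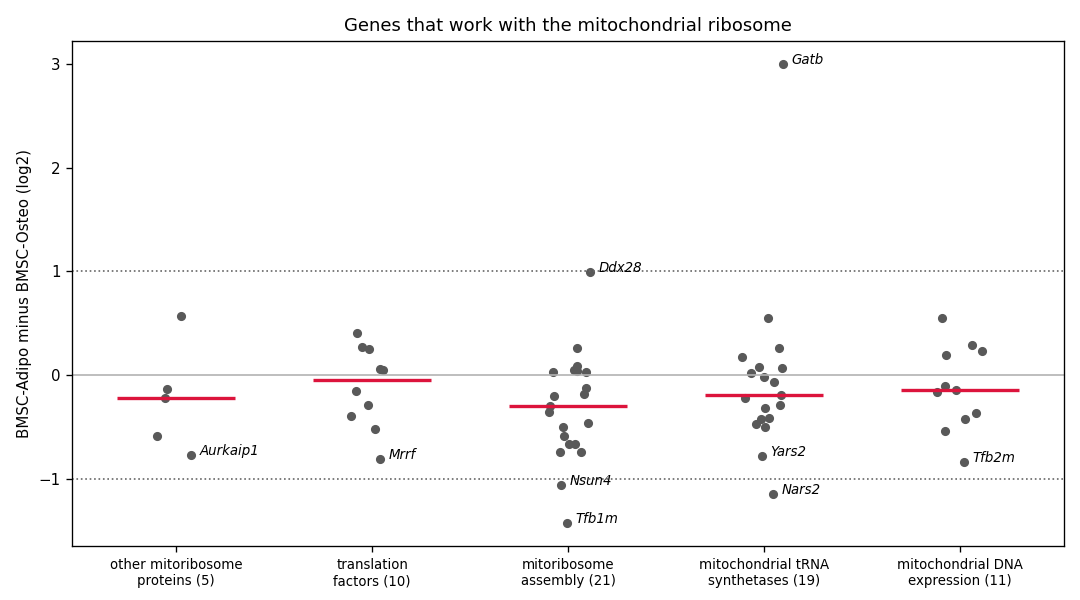
Difference between the lines (BMSC-Adipo minus BMSC-Osteo, log2, vertical axis) for genes that work with the mitochondrial ribosome, 1 point a gene, with red bars at the medians and dotted lines at 2-fold. The lowest median is that of the 21 assembly factors (-0.30), and *Gatb* (3.00) stands apart.

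The members were set beside cytosolic ribosomal proteins and nuclear-encoded respiratory chain subunits. Cytosolic ribosomal proteins had a median of -0.03 over 52 genes, and 4 of them (7.69%, near the background of 6.68%) were at least 2-fold higher in BMSC-Osteo. These were *Rpl39l* (-1.88), *Rpl12* (-1.61), *Rps25* (-1.50) and *Rps4l*. *Rpl12* had 6.70 in BMSC-Adipo and 8.32 in BMSC-Osteo, and *Rps25* had 7.73 and 9.23. Both were dim beside most of this list, such as *Rplp0* (13.2 and 13.6). *Rps4l* had 3.36 in BMSC-Adipo, under the level of the filter, and 9.58 in BMSC-Osteo, and so passed only through BMSC-Osteo and is given no size. Respiratory chain and ATP synthase subunits had a median of 0.12 over 73 genes. Of these 43 were higher in BMSC-Adipo, 13 by at least 1.5-fold (17.8%, near the background of 16.1%), and 2 were at least 1.5-fold higher in BMSC-Osteo (2.74%, against 14.5% of all genes). Among the members these counts were 3 (3.90%) and 7 (9.09%), both under the background. The subunits furthest toward BMSC-Adipo were *Cox6b2* (1.25), *Ndufa1* (1.00), *Ndufa4* (0.93) and *Ndufb5*. *Cox6b2* was dim, with 5.59 in BMSC-Adipo and 4.34 in BMSC-Osteo, the latter near the level of the filter. *Sdhb* (-1.03), of complex II on chromosome 4, was the one furthest toward BMSC-Osteo. The medians of the members and of the respiratory chain thus lay on opposite sides of 0. The difference between these lists was not tested, and in RNA from a whole culture fewer expressing cells and less RNA per cell cannot be told apart.

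**Figure D5:**
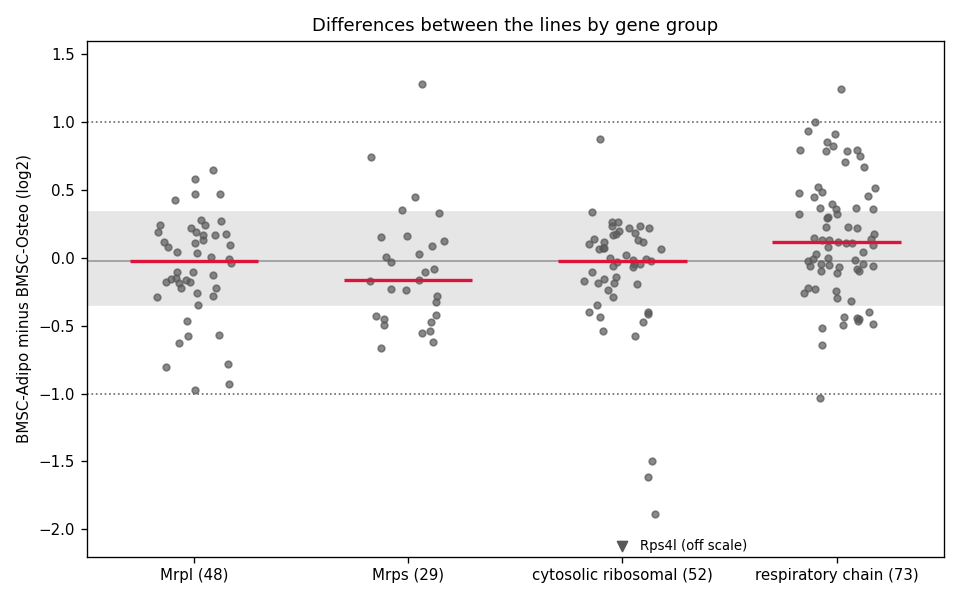
Difference between the lines (BMSC-Adipo minus BMSC-Osteo, log2, vertical axis) for *Mrpl* and *Mrps* members, cytosolic ribosomal proteins and respiratory chain subunits, 1 point a gene with red bars at the medians, the grey line and band giving the median and middle range of all genes (-0.35 to 0.33) and dotted lines marking 2-fold. Medians are -0.02, -0.17, -0.03 and 0.12, and the triangle marks *Rps4l*, which lies below the axis and is under the level of the filter in BMSC-Adipo.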

How the data were processed

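Total RNA (8 µg in the labels) of 2 pools, 1 of each line, was hybridised to 1 Affymetrix array each. The authors deposited values that range as log2 levels do, and the submitters' processing notes name oligo and RMA, with no version. The deposited log2 levels spanned 1.85 to 14.0 (median 5.01) in BMSC-Adipo and 1.77 to 14.0 (median 5.02) in BMSC-Osteo. A column of the authors' own fold changes, whose sign runs the other way (BMSC-Osteo minus BMSC-Adipo), was not used.

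Control probe sets and those with no gene or several genes were left out, which left 38190. Each gene took its probe set with the highest mean, and a filter at the 30th percentile of gene means was applied. No test was run, since 2 arrays limit what the values can show. By Entrez ID, 94.7% of genes past the filter and all 77 members matched the RefSeq gene table of GRCm38.p6. Any member could be named, and those in full were the members 2-fold apart, the 10 largest differences each way whose probe sets share a sign, members whose probe sets differ in sign, the 3 brightest of each subunit, those of the stalk, tunnel exit and head, the *Mrps18* paralogs, *Mrps30* and *Mrps36*. Of other lists up to 4 genes with the largest differences and any gene 2-fold apart were named. Neighbouring and paired genes and *Chchd1* fall outside this rule and were chosen after their values were seen. Members and lists were chosen with earlier results of these data known. The procedure was tested on simulated data with planted shifts. Alternatives covered probe set choice, the filter, centring (median, loess with span 0.3, chromosome medians), an offset of 32 and membership; the series matrix held the same values as the table. Python 3.11.15, pandas 2.3.3 and statsmodels 0.14.6 were used.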

Additional observations from a re-analysis of the deposited data

How the results depend on the processing

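Of 690 values of single members under alternative settings, 686 moved by less than the pooled SD between probe sets (0.40) and no member at least 1.5-fold apart changed sign. The 4 that moved were *Mrpl1* (-0.17) and *Mrpl17* (-0.15) with the mean of probe sets, and *Mrpl34* (0.24) and *Mrps31* (0.34) with chromosome medians subtracted. The series matrix, identical to the table, is among these settings. Dropping the filter or raising it to the 50th percentile also could not change a member's value, since all members passed. Subtracting the overall median (-0.03) moved every member by the same amount, within the tolerance. Part of the 686 was therefore fixed in advance. The tolerance was also about as large as the SD of the member differences (0.40). Signs of members less than 1.5-fold apart were not part of this check. With the mean of probe sets the sign turned for *Mrpl1*, *Mrpl30* (0.09), *Mrpl19* (0.02) and *Mrpl49* (-0.01). The setting with each probe set on its own was not applied to single members. Of 242 medians, counts and correlations of lists, 217 stayed within tolerance, which was 1.5 times for a count, 0.1 for a correlation and the pooled SD over the square root of the number of genes for a median. With the mean of probe sets the median became -0.0308 for all members, -0.0615 for the small subunit, 0.0514 for the gap between subunits, -0.0100 for bacterial-type and -0.0677 (sign turned) for mitochondria-specific large subunit genes, 0.0741 (turned) for translation factors and -0.15 for cytosolic ribosomal proteins. With each probe set on its own, 11 probe sets were at least 1.5-fold higher in BMSC-Osteo, and medians were -0.0779 for the small subunit, 0.0064 for the gap, 0.16 (turned) for the stalk, -0.0368 (turned) for mitochondria-specific large subunit genes, 0.0448 (turned) for translation factors, -0.13 for assembly and -0.0621 for tRNA synthetases. With chromosome medians subtracted, 1 member was at least 1.5-fold higher in BMSC-Adipo and 2 in BMSC-Osteo. The shares of all genes under this setting were not computed. Its medians were -0.0369 for all members, 0.0128 (turned) for bacterial-type small subunit genes, -0.16 for assembly and 0.18 for the respiratory chain. Subtracting the overall median gave 0.00202 (turned) for the large subunit, loess gave -0.00285 (turned) for mitochondria-specific large subunit genes, and the offset gave -0.21 for assembly. Without *Mrps6*, a choice made after seeing the data, 0 members were 2-fold higher in BMSC-Adipo. The cause of these moves was not tested. The correlation with chromosome medians ran from 0.61 to 0.68 with all members kept, and the Pearson r was 0.78 without *Mrps6*. Leaving out probe sets marked as cross-matching moved no value beyond tolerance. It kept 74 members, *Mrpl37* not among them, and 6 were at least 1.5-fold higher in BMSC-Osteo. The correlation and the setting without cross-matching probe sets were both added after seeing the data. No paired analysis was possible because each line had 1 array.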
